A study of Mus musculus with 6 samples.

Results

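The genes of the cytosolic ribosomal proteins were taken from the bone marrow table by symbol: Rpl or Rps followed by a number and at most 1 letter, the stalk proteins Rplp0 to Rplp2, Rpsa and Fau. This gave 84 genes with 526 transcripts, of 56496 genes in the table. Of these, 51 belong to the large subunit and 33, with Rpsa and Fau, to the small subunit. The rule also takes in the paralogues Rpl3l, Rpl10l, Rpl39l, Rps4l and Rps27l, and also Rpl6l and Rpl32l. GENCODE M21 marks the transcripts of Rpl6l and Rpl32l as processed pseudogenes and the gene Rps4l as a transcribed processed pseudogene. The rule does not take in Rps3a1, which also encodes a ribosomal protein.

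The 6 libraries were RNA-seq of bone marrow cells from female BALB/c mice that had carried 4T1, a mouse mammary carcinoma line, until the tumour was resected. The 3 Onway libraries (Onway 1, 2 and 3) carry the label day 14 and stand for mice gavaged with Onway over 2 weeks. The 3 Control libraries (Control 4, 5 and 6) carry the label day 0 and stand for mice without it, so the labelled day and the agent cannot be told apart. The sources used here give neither ages nor the composition of Onway, and the labels do not say that each library came from its own mouse. The p-values therefore measure the spread between these libraries, which may be technical.

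A ribosome is built from ribosomal RNA and one copy of almost every ribosomal protein, in a large subunit that joins amino acids and a small subunit that reads the messenger RNA. Most of these messenger RNAs begin with a C followed by a run of pyrimidines, the 5' TOP tract, through which their translation follows growth signals. In bone marrow the red cell lineage is known to be sensitive to a shortage of ribosomal proteins: loss of one gene copy causes Diamond-Blackfan anaemia in people. Each gene also has many processed pseudogenes, near-identical copies without introns.

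The start regions below show runs of C and T near the starts of members, which can lie before the start and so outside the messenger RNA. RefSeq promoters (GRCm38.p6, 250 bases before to 50 after the start) were matched to 62 of the 84 members, taking for each the start nearest to that of its most abundant transcript. Each line gives the 30 bases before and 20 bases from the start, with the longest run of C and T that touches the 25 bases on either side of the start in capitals. The first 4 are the members with the longest runs among those whose start lay within 50 bases of the annotated one and whose run fits the printed stretch, and the others are members whose values are described below.
Rpl7a: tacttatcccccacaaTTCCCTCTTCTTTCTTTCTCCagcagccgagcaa
Rpl27a: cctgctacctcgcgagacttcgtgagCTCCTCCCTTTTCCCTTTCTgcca
Rpl13a: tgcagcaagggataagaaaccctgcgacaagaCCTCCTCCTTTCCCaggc
Rpl4: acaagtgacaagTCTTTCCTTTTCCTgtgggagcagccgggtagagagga
Rps27: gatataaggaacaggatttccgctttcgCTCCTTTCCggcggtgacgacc
Rps27l: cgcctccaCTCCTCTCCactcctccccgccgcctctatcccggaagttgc
Rps18: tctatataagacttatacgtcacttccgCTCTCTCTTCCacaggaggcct
Rps2: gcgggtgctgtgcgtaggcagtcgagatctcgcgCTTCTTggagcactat
Rpl3l: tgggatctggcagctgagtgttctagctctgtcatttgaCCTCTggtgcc
Rpl39l: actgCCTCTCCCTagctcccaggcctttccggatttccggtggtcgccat

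These stretches lie at chr2:26910777-26910826 (Rpl7a, plus strand), chr7:109519165-109519214 (Rpl27a, plus), chr7:45128726-45128775 (Rpl13a, minus) and chr9:64173357-64173406 (Rpl4, plus). The paralogue pair lies at chr3:90213629-90213678 (Rps27, minus) and chr9:66946056-66946105 (Rps27l, plus). The rest lie at chr17:33955646-33955695 (Rps18, minus), chr17:24720033-24720082 (Rps2, plus), chr17:24727796-24727845 (Rpl3l, plus) and chr16:10170198-10170247 (Rpl39l, plus). The longest run was 21 bases in Rpl7a and 20 in Rpl27a, against 5 in Rpl3l and 6 in Rps2. A run of at least 8 bases on the gene's strand was present in 38 of the 62 matched members (61.3%) and in 24.1% of all 32851 promoters of the same length, with median runs of 9 and 5 bases. The letters CTCTTTC were found on the gene's strand in 22.6% of members and 3.99% of all promoters, and on either strand in 29.0% and 8.16%. CTTTCC, which can overlap it, was found on the gene's strand in 38.7% of members and 14.1% of all promoters, and on either strand in 31 of the 62 and 26.6%. CCGGAAGT, the letters of an ETS factor's motif, were found on either strand in 17.7% of members and 3.89% of all promoters. These matches describe letters in a window and are not shown to be sites. A marked or counted run need not be a 5' TOP tract: those marked in Rpl4, Rps27l and Rpl39l lie wholly before the start.

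The members made up between 7.12% and 9.23% of the TPM of a library. TPM is transcript abundance scaled by transcript length and to a total of 1000000 in each library, so levels of different genes can be compared and a library's values share that total. The summed TPM of all members was 79634, 92275 and 78230 in Control 4, 5 and 6, and 71214, 77766 and 74256 in Onway 1, 2 and 3. The groups did not overlap, and the ratio of the group means, Onway to Control, was 0.892. Leaving out Control 5, the highest library, moved the ratio to 0.943. With near-identical copies added to each member, the sums were 107626, 123087 and 104238 TPM in Control 4, 5 and 6. In Onway 1, 2 and 3 they were 93943, 104700 and 99813 TPM, so the groups overlapped in that form, with a ratio of 0.891. In bulk marrow, fewer cells of a type and less RNA per cell cannot be told apart.

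The TPM left for all other genes varied with haemoglobin, whose genes took 26.6%, 11.6% and 18.3% of TPM in Control 4, 5 and 6 and 13.3%, 9.38% and 33.9% in Onway 1, 2 and 3. As a share of the TPM outside haemoglobin, the members held 10.8%, 10.4% and 9.57% in Control 4, 5 and 6 and 8.22%, 8.58% and 11.2% in Onway 1, 2 and 3. On that scale the groups overlapped, with Onway 3 the highest library of all. The share of haemoglobin in the difference of the sums was not tested.

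The large subunit's 51 genes summed to 42127, 48018 and 40862 TPM in Control 4, 5 and 6 and to 36689, 40237 and 38328 TPM in Onway 1, 2 and 3, without overlap. The 33 genes of the small subunit summed to 37508, 44257 and 37368 TPM in the Control libraries and to 34526, 37528 and 35929 TPM in the Onway libraries, and Onway 2 lay between the Control values. The ratio of large to small subunit sums, which does not depend on a library's total, was 1.12, 1.08 and 1.09 in Control 4, 5 and 6 and 1.06, 1.07 and 1.07 in Onway 1, 2 and 3. All Onway ratios were below all Control ratios, with a difference of means of -0.033 (Control 1.10 ± 0.020, Onway 1.07 ± 0.0048, SD, n = 3 each). With near-identical copies added to each member, the ratio was 1.20, 1.15 and 1.16 in Control and 1.17, 1.14 and 1.15 in Onway, and the groups overlapped.

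**Figure D1:**
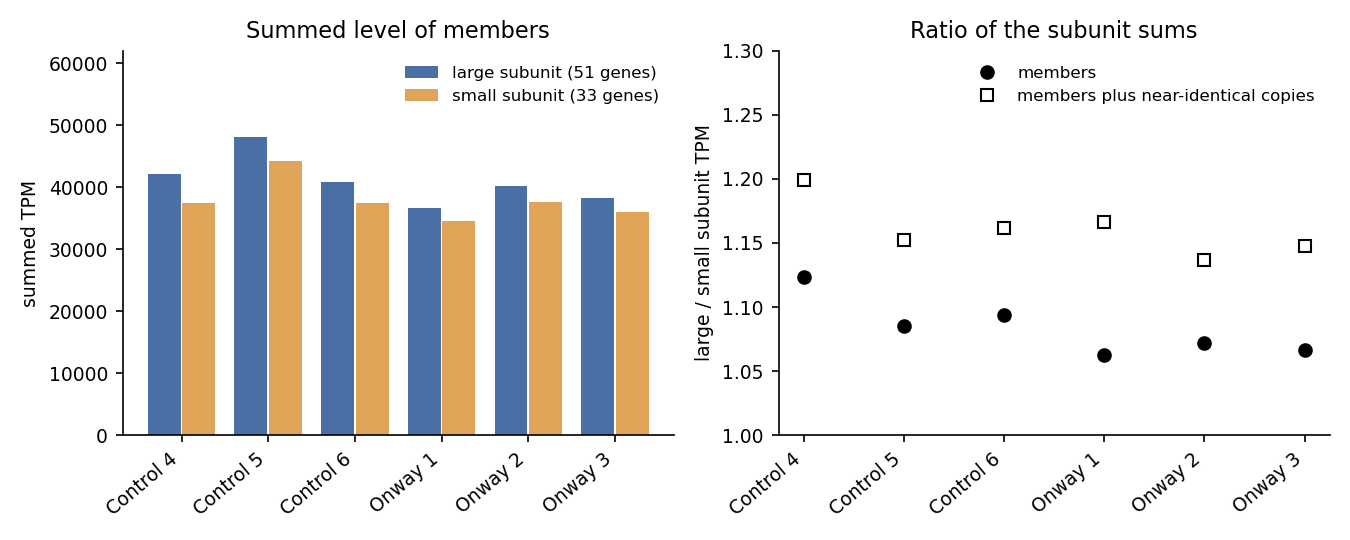
Left, summed TPM of the 51 large and 33 small subunit genes in each library, as bars. Right, the ratio of the sums in each library for members alone (filled circles, from 1.06 to 1.12) and with near-identical copies added (open squares, from 1.14 to 1.20), on an axis that starts at 1: the groups separate for members alone and overlap with copies added.

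No member passed the test between groups. Of the 84 members, 81 had a mean of at least 1 TPM and were tested with limma on log2(TPM + 1). With Benjamini-Hochberg adjustment over all 14192 tested genes, 0 of 81 had an adjusted p under 0.05, while 457 genes did, or 3.22% of all tested. At an unadjusted p under 0.05 there were 4 members (4.94%: Rpl3l, Rps18, Rps27l and Rpl17), beside 13.4% of all tested genes. The 3 members not tested were Rpl10l and Rpl32l, listed at 0 in every library, and Rpl39l.

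The direction of the differences was nearly uniform. The log2 fold change, Onway against Control, was negative for 79 of the 81 tested members (97.5%) and for 46.4% of all tested genes. The median over members was -0.16, with quartiles of -0.27 and -0.08, and the median over all tested genes was 0.03. The medians of the subunits were alike, at -0.16 for the 48 tested large subunit genes and -0.17 for the 33 small subunit genes. The median standard error of members at or above a mean of 10 TPM was 0.17, about the size of the median change. Members share the scaling of each library, so their common direction is not a count of independent results.

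Lower values in every Onway library than in any Control library were found for 23 of the 81 tested members (28.4%), beside 11.5% of all tested genes. Higher values without overlap were found for 0 of 81, beside 6.95% of all tested genes. The first count depended on the scaling. It was 6 with haemoglobin genes removed before scaling, 7 with median-of-ratios scaling and 7 with quantile normalization, or 7.41%, 8.64% and 8.64% of members, beside 11.5%, 12.6% and 13.9% of all tested genes. With copies added to the parents it was 29 (35.8%, beside 11.5% of all genes tested). With quantile normalization 1 member was higher without overlap.

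**Figure D2:**
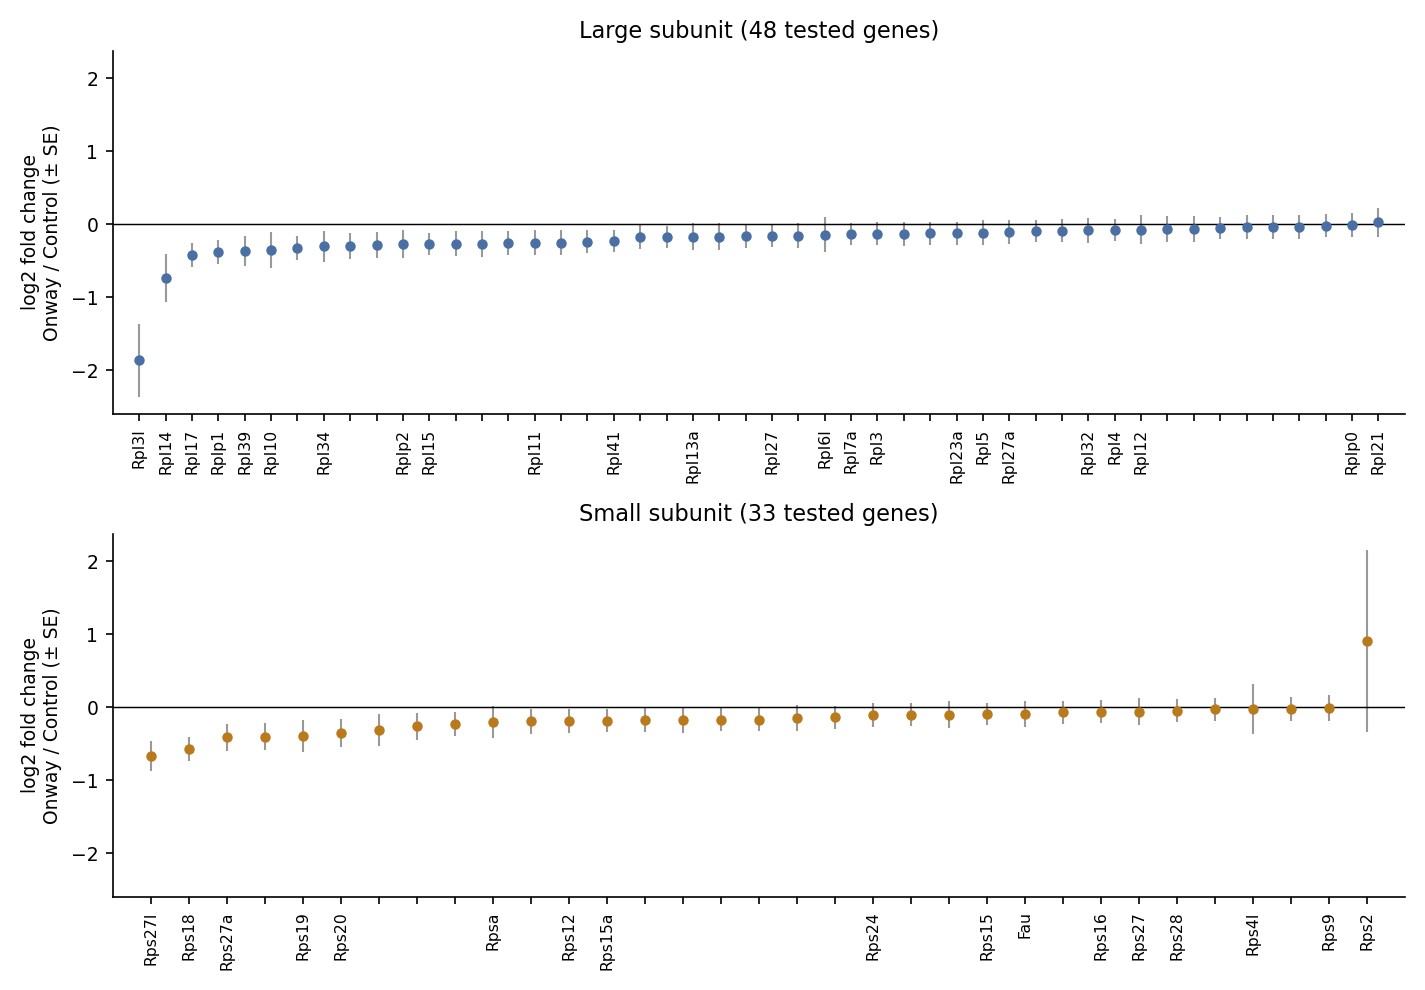
Log2 fold change on the log2(TPM + 1) scale, Onway against Control, for the 48 large (top) and 33 small subunit genes (bottom) that were tested, ordered by value, with names printed for some of the members; points are estimates and bars ± 1 SE. Nearly all points lie just below 0, Rpl3l lies at -1.87, and Rps2, at 0.91, has a standard error of 1.25.

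Counted without copies, the most abundant members were Rps27, Rps12, Rpl23a, Rplp1 and Rps15, at means of 2896, 2404, 2353, 2344 and 2304 TPM over the 6 libraries. Rps27, a small subunit protein, was at 2672, 3286 and 2896 TPM in Control 4, 5 and 6 and 2380, 2998 and 3145 TPM in Onway 1, 2 and 3, and the groups overlapped. The other most abundant small subunit genes were Rps24 (2200 TPM) and Rps9 (1934 TPM). In the large subunit, Rpl41 (2083 TPM) and Rpl32 (1813 TPM) were also among the most abundant. Rpl41, which encodes a very short protein, was at 2249, 2426 and 2073 TPM in Control and 1936, 1903 and 1912 TPM in Onway, without overlap (log2 fold change -0.23 ± 0.16 SE, limma adjusted p = 0.60). The median level was 749 TPM for large and 1121 TPM for small subunit genes, with the members near 0 TPM included. Among members at a mean of 10 TPM or more, the medians were 827 TPM for large and 1140 TPM for small subunit genes. With near-identical copies added to these, they were 1111 TPM and 1370 TPM. The order of genes whose values overlap across libraries, such as Rpl23a, Rplp1 and Rps15, is not a difference in level. With near-identical copies added, Rps28 (3029 TPM), Rps27 (2922 TPM), Rps29 (2912 TPM) and Rps12 (2841 TPM) stood highest.

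The least abundant members, again without copies, fell into separate kinds. Rpl12 (36.2 TPM), Rpl5 (53.3 TPM), Rps18 (58.7 TPM), Rpl21 (121 TPM) and Rps20 (122 TPM) encode proteins of the standard ribosome, and below them stood only paralogues and pseudogene-like members: Rps4l (5.00 TPM), Rpl3l (4.25 TPM), Rpl6l (1.05 TPM), Rpl39l (0.62 TPM), Rpl10l and Rpl32l (both listed at 0). Rps27l, at 188 TPM, was the most abundant paralogue among the members. The lowest 5 of the small subunit were Rps4l, Rps18, Rps20, Rps27l and Rps2 (286 TPM).

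The low standard members had near-identical copies with much higher TPM. A nucleotide search of the table's transcripts, as annotated in GENCODE M21, found 542 other genes with at least 90% identity over at least 70% of their length to a coding transcript of 71 members. Rpl12, a protein of the stalk's base, stood at 36.2 TPM and at 1416 TPM with its copies, of which Gm10275, a pseudogene on chromosome 10 identical over its match, held 1377 TPM. Rpl5, which binds the 5S ribosomal RNA, stood at 53.3 TPM and at 927 TPM with copies, of which Gm15500 held 873 TPM. Rps18 stood at 58.7 TPM and at 1928 TPM with copies, of which Rps18-ps6 held 1670 TPM. The same step moved Rpl21 from 121 to 1265 TPM, Rpl27a from 224 to 1830 TPM and Rps28 from 1031 to 3029 TPM.

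Over the 78 members with a mean of at least 10 TPM, the standard deviation of the log2 level across genes was 1.28 for members alone and 0.74 with copies added. The highest member was 80.1-fold above the lowest alone and 16.1-fold above it with copies. Copies held over 50% of the summed level for 20 of the 78. Whether these reads came from the parent or from the pseudogene cannot be told apart in this table, so the level of each such member alone is uncertain. Gm11518 and Rpl27-ps3, 2 copies of Rpl27, were listed with the same value in each library.

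**Figure D3:**
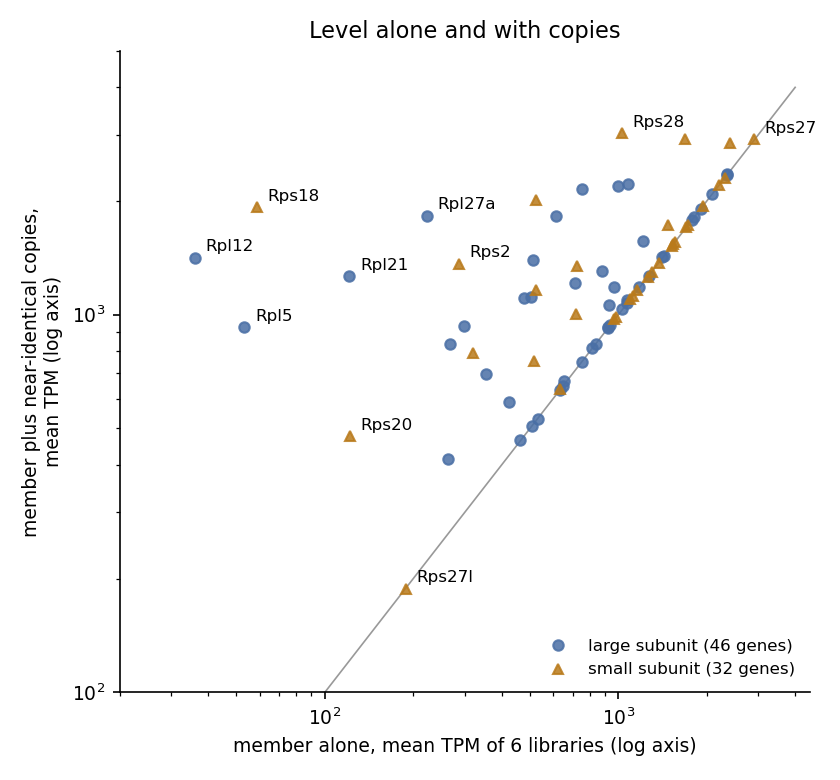
Mean TPM over 6 libraries of the 78 members at or above 10 TPM, alone (horizontal, log axis) and with near-identical copies added (vertical, log axis); circles are large and triangles small subunit genes, and the line marks equality. Rpl12, Rpl5 and Rps18 lie far above the line, and Rps27 and Rps27l lie on or close to it.

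For several members the split between parent and copy differed from library to library. Rps2, a small subunit protein near the entry of the messenger RNA channel, was at 648, 60.6 and 55.0 TPM in Control 4, 5 and 6 and 429, 75.9 and 444 TPM in Onway 1, 2 and 3. Control 4, Onway 1 and Onway 3 were high and the other three low, so the groups overlapped (log2 fold change 0.91 ± 1.25 SE, limma adjusted p = 0.82). Its copy Rps2-ps10 was at 963, 1509 and 1361 TPM in Control and 618, 1199 and 661 TPM in Onway, low where Rps2 was high within each group. Rps2 with its 43 copy genes came to 1651, 1588 and 1438 TPM in Control and 1080, 1297 and 1138 TPM in Onway. On the sum the groups did not overlap, the sign was opposite to that of Rps2 alone, and the test was not passed (log2 fold change -0.41 ± 0.16 SE, limma adjusted p = 0.33).

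Rpsa, a small subunit protein also described as a laminin receptor, was at 610, 918 and 787 TPM in Control and 794, 651 and 559 TPM in Onway. Its copy Rpsa-ps10 was at 586, 0.26 and 0.46 TPM in Control and 0, 523 and 567 TPM in Onway, present in the libraries where Rpsa was lowest. The log2 fold change of Rpsa was -0.20 ± 0.22 SE alone (limma adjusted p = 0.75) and 0.10 ± 0.24 SE with copies (adjusted p = 0.91). Rpl34 and Rpl34-ps1 split in the same manner, the copy being at 502, 0 and 0.80 TPM in Control and 365, 14.1 and 414 TPM in Onway.

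Rpl14, a large subunit protein, had the most negative estimate among members at or above 10 TPM (log2 fold change -0.74 ± 0.33 SE, limma adjusted p = 0.40). It was at 197, 464 and 340 TPM in Control 4, 5 and 6 and 240, 180 and 154 TPM in Onway 1, 2 and 3, with Control 4 among the Onway values. Its copy Rpl14-ps1 was at 339, 0 and 0 TPM in Control and 0.42, 283 and 290 TPM in Onway. The sum was 536, 464 and 340 TPM in Control and 240, 463 and 444 TPM in Onway, and the estimate became -0.26 ± 0.30 SE. Rps19, the gene most often mutated in Diamond-Blackfan anaemia, was at 512, 702 and 542 TPM in Control and 348, 530 and 468 TPM in Onway (log2 fold change -0.39 ± 0.22 SE, limma adjusted p = 0.51). With copies, mainly Gm45660 and Rps19-ps6, its estimate was 0.20 ± 0.21 SE, of the opposite sign.

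**Figure D4:**
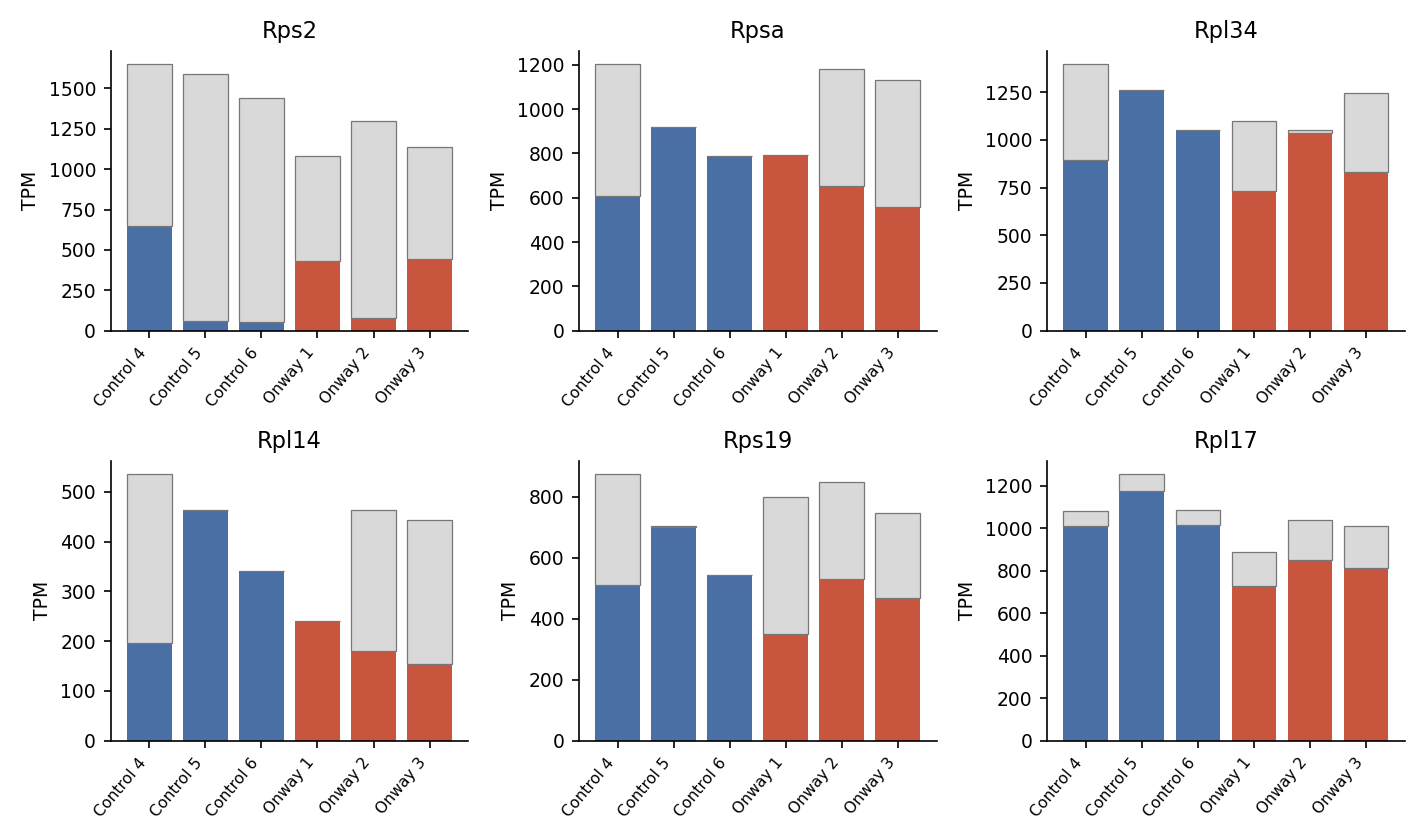
TPM by library of 6 members (coloured, blue for Control and red for Onway) with the summed TPM of their near-identical copies stacked on top (grey); each panel has its own axis from 0. Control 5 and Control 6 show almost no copy TPM for Rpsa, Rpl34, Rpl14 and Rps19, and Rps2 is below 100 TPM in Control 5, Control 6 and Onway 2.

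Rpl17 was one of the 4 members with an unadjusted p under 0.05. This large subunit protein, which lines the peptide exit tunnel, was at 1010, 1176 and 1013 TPM in Control 4, 5 and 6 and 729, 850 and 815 TPM in Onway 1, 2 and 3. The groups did not overlap (log2 fold change -0.42 ± 0.16 SE, limma adjusted p = 0.32). Its copy Rpl17-ps5 went the other way: it was at 0, 0.73 and 0 TPM in Control and 96.2, 127 and 125 TPM in Onway, and passed the test (log2 fold change 7.26 ± 0.38 SE, limma adjusted p = 0.00048). With near-identical copies added, Rpl17 had an estimate of -0.22 ± 0.17 SE. With its named pseudogenes added instead, a different set chosen by symbol and not by identity, the estimate was 0.0010. Of the 99 copy genes at or above 1 TPM, 3 passed the test, beside 3.22% of all tested genes. Rpl17-ps5 and Gm46209, another copy of Rpl17, were higher, and Rps12-ps3 was lower. Their matches to the parents were 99.6%, 98.7% and 100% identical. Whether their reads came from the copy or from the parent cannot be told apart in this table. Rps12-ps3 was at 403, 545 and 379 TPM in Control and 188, 211 and 200 TPM in Onway (log2 fold change -1.13 ± 0.19 SE, limma adjusted p = 0.021), while its parent Rps12 was at 2419, 2884 and 2383 TPM in Control and 2306, 2268 and 2167 TPM in Onway (-0.18 ± 0.16 SE, adjusted p = 0.70).

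Rps18, a protein of the small subunit's head, was at 69.7, 70.9 and 69.95 TPM in Control and 46.0, 40.9 and 54.7 TPM in Onway. The groups did not overlap (log2 fold change -0.57 ± 0.17 SE, limma adjusted p = 0.16). Since its copies held 96.96% of the summed level, this concerns a small part of it. With copies the values were 1907, 2275 and 1967 TPM in Control and 1835, 1723 and 1864 TPM in Onway, and the estimate was -0.18 ± 0.16 SE (limma adjusted p = 0.71).

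Among the paralogues, Rpl3l takes the place of Rpl3, a protein at the peptidyl transferase centre, in the ribosomes of striated muscle. Rpl3l (chr17:24727820-24736143, plus strand) was at 6.14, 2.64 and 13.6 TPM in Control 4, 5 and 6 and at 0.80, 1.70 and 0.61 TPM in Onway 1, 2 and 3. All Control libraries were above all Onway libraries, yet the Control values ranged widely, and the test was not passed (log2 fold change -1.87 ± 0.51 SE, limma adjusted p = 0.15). Leaving out Control 5, the lowest Control library, gave -2.36 with an adjusted p of 0.015, the one setting in which any member passed. Rpl3 was at 292, 288 and 259 TPM in Control and 237, 263 and 266 TPM in Onway, overlapping, and its copy Rpl3-ps1 held a further 568 TPM. Rpl3l came to 2.11%, 0.92% and 5.25% of Rpl3 in Control and 0.34%, 0.65% and 0.23% in Onway.

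Skeletal muscle genes moved with Rpl3l. The summed TPM of 15 of them was 2122, 776 and 5008 in Control 4, 5 and 6 and 22.0, 25.9 and 17.5 in Onway 1, 2 and 3, in the same order as Rpl3l within the Control group. Of the 14 tested, 13 were lower in Onway and 0 higher (median log2 fold change -5.09). Acta1, skeletal muscle actin, was at 350, 116 and 706 TPM in Control and 0.56, 1.10 and 0.03 TPM in Onway. Rpl3l stood at 2.89, 3.40 and 2.72 TPM per 1000 TPM of the muscle list in Control and at 36.4, 65.6 and 34.9 in Onway, where both values were low. The part of muscle RNA in the Rpl3l values was not tested.

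**Figure D5:**
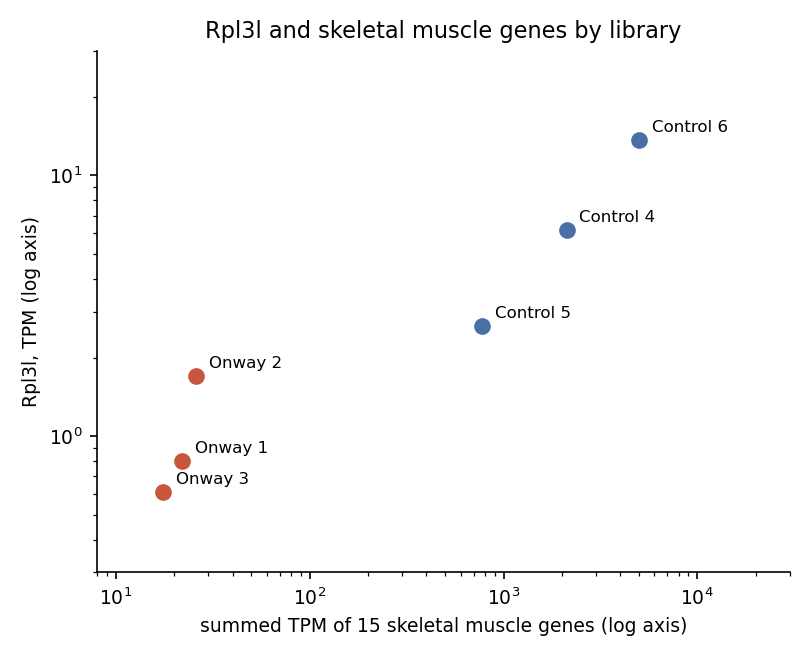
Rpl3l TPM (vertical, log axis) against the summed TPM of 15 skeletal muscle genes (horizontal, log axis), 1 point per library, blue for Control and red for Onway. The 3 Control libraries lie at 776 to 5008 TPM of muscle genes and the 3 Onway libraries at 17.5 to 25.9.

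Rps27l, a paralogue of Rps27 that p53 is known to induce, was at 222, 256 and 212 TPM in Control and 122, 184 and 134 TPM in Onway, without overlap (log2 fold change -0.66 ± 0.21 SE, limma adjusted p = 0.20). It came to 8.31%, 7.78% and 7.33% of Rps27 in Control and 5.14%, 6.15% and 4.25% in Onway, also without overlap, and the search found no near-identical copy of it. Rpl22l1, a paralogue of Rpl22 outside the member rule, was at 134, 184 and 116 TPM in Control and 63.5, 104 and 82.2 TPM in Onway (log2 fold change -0.79 ± 0.25 SE, limma adjusted p = 0.21). Rpl39l, a paralogue of Rpl39 known from the testis, was below the level for testing, at 1.41, 1.31 and 0.76 TPM in Control and 0, 0.19 and 0.07 TPM in Onway. A two-sided exact permutation test, with 20 ways to assign the libraries, gave p = 0.1 for it, the smallest value 3 against 3 libraries allow. Rps4l, at 2.95 to 7.83 TPM, and Rpl6l, at 0.71 to 1.38 TPM, overlapped between groups. Of the 9 paralogues listed, 7 were tested and 0 passed, with 3 at an unadjusted p under 0.05, beside 13.4% of all tested genes. The list was chosen with earlier results of these data known.

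The stalk, the flexible arm that recruits elongation factors, is formed by Rplp0, Rplp1 and Rplp2 on a base with Rpl12. Rplp1 was at 2584, 2965 and 2405 TPM in Control and 1869, 2065 and 2179 TPM in Onway, without overlap (log2 fold change -0.38 ± 0.17 SE, limma adjusted p = 0.40). Rplp0 was at 1320, 1272 and 1065 TPM in Control and 1275, 1197 and 1155 TPM in Onway, overlapping, with an estimate of -0.01 ± 0.17 SE. Rplp2 was at 629, 610 and 500 TPM in Control and 424, 581 and 442 TPM in Onway, also overlapping. In the 5S particle, which binds Mdm2 when ribosome assembly is disturbed, Rpl11 was at 873, 1033 and 828 TPM in Control and 683, 851 and 760 TPM in Onway, and Rpl5 overlapped as well. With copies added, the values of Rplp0 were 1645, 1639 and 1581 TPM in Control and 1564, 1509 and 1448 TPM in Onway, and those of Rpl12 were 1539, 1627 and 1394 TPM in Control and 1253, 1293 and 1390 TPM in Onway, both without overlap. Neither passed the test in that form (limma adjusted p = 0.82 for Rplp0 and 0.65 for Rpl12).

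Fau and Rps27a encode ribosomal proteins fused to a ubiquitin-like protein and to ubiquitin. Fau was at 1113, 1539 and 1254 TPM in Control and 1214, 1267 and 1167 TPM in Onway and overlapped. Rps27a was at 653, 835 and 688 TPM in Control and 503, 624 and 506 TPM in Onway, without overlap (log2 fold change -0.41 ± 0.18 SE, limma adjusted p = 0.39). Of 16 ribosomal protein genes mutated in Diamond-Blackfan anaemia, 0 passed the test, 0 had an unadjusted p under 0.05, all had a negative estimate, and the median was -0.16. Rpl15, one of them, was at 372, 412 and 375 TPM in Control and 319, 329 and 311 TPM in Onway, without overlap (log2 fold change -0.27 ± 0.15 SE, limma adjusted p = 0.51). Counted without copies, Rpl21 and Rps2 were the members with a positive estimate, that of Rpl21 being 0.03 ± 0.19 SE. With copies added, the estimate of Rpl21 was -0.15 ± 0.16 SE, and those of Rpsa, Rps19 and Rpl37 were positive.

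The table also divides each member among its transcripts. Retained-intron transcripts held 1.30%, 1.01% and 1.26% of member TPM in Control 4, 5 and 6 and 1.55%, 1.58% and 1.67% in Onway 1, 2 and 3, without overlap. Transcripts marked for nonsense-mediated decay held 1.42%, 1.26% and 1.33% in Control and 1.43%, 1.56% and 1.58% in Onway, with Control 4 and Onway 1 nearly equal. Processed transcripts overlapped between groups, at 1.26%, 0.77% and 0.89% in Control and 1.22%, 1.06% and 1.63% in Onway, as did newly assembled transcripts, at 1.55% to 1.82% over all libraries. Protein-coding transcripts held between 93.3% and 95.2%. In Rps16, non-coding transcripts held 57.1%, 42.0% and 46.2% of the gene's TPM in Control and 61.5%, 60.0% and 64.7% in Onway, and in Rpl27 they held 1.42%, 0.96% and 1.53% in Control and 4.74%, 3.17% and 5.03% in Onway. In Rps20 the share was lower in Onway, at 23.99%, 34.99% and 31.72% in Control and 22.65%, 23.10% and 15.04% in Onway, and the smaller shares in Rps24 and Rpl13 were lower as well. In most members the shares overlapped. A retained-intron transcript held 54.8% of the TPM of Rps16, which counts in the retained-intron sum above. The same shares over all genes were not computed, so whether these differences are particular to the members is not known. In Rps15a, 74.4% of the TPM was on a newly assembled transcript. These shares rest on how the authors' processing divided reads among overlapping transcripts.

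Other genes of ribosome production also gave no call. For the counts below, 13.4% of all tested genes had an unadjusted p under 0.05. Of 41 tested assembly factors, 0 passed and 4 had an unadjusted p under 0.05 (median log2 fold change -0.07), with the smallest p for Nhp2, a protein of the snoRNA particles that modify ribosomal RNA (-0.49 ± 0.17 SE, limma adjusted p = 0.27), and Nle1 (-0.45 ± 0.17 SE, adjusted p = 0.31). Of 16 tested genes of RNA polymerase I and its factors, 0 passed and 0 had an unadjusted p under 0.05 (median -0.03), with the smallest p for Taf1b and Taf1c. Of 30 translation factors, 0 passed and 1, the elongation factor kinase Eef2k, had an unadjusted p under 0.05 (0.43 ± 0.18 SE, limma adjusted p = 0.36). The next smallest p was that of Eif1. Of 23 other 5' TOP transcripts, 0 passed and 0 had an unadjusted p under 0.05 (median -0.11), with the smallest p for Eef1g and Eef1d, subunits of an elongation factor complex. Of 18 tested regulators of ribosomal protein synthesis, 0 passed and 0 had an unadjusted p under 0.05 (median 0.10). Among them Sesn2, an inhibitor of mTORC1 signalling, had a log2 fold change of 0.41 ± 0.20 SE (limma adjusted p = 0.44).

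The marker lists gave the makeup of the libraries. Over all tested genes, 3.22% passed the test and 13.4% had an unadjusted p under 0.05. Neutrophil markers summed to 98330 to 213390 TPM in the Control and 107588 to 191723 TPM in the Onway libraries, and 0 of 12 passed the test (1 at an unadjusted p under 0.05). Erythroid markers summed to 77349 to 176386 TPM in the Control and 54567 to 221690 TPM in the Onway libraries, and 0 of 10 passed (0 at an unadjusted p under 0.05). Lower in Onway were 8 of 8 megakaryocyte markers, 10 of 11 bone and stroma markers and 6 of 7 endothelial markers, besides the muscle genes, and 0 of 9 B cell markers passed (4 at an unadjusted p under 0.05, median log2 fold change 1.14). The part of these differences in the members' values was not tested.

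The authors' deposited table also lists a mean of each group, which held a further value besides the 3 libraries. In the authors' deposited table the members summed to 82228 TPM for Control and 75270 TPM for Onway. What 4 times the deposited mean left beyond the 3 libraries came to 78772 TPM for Control and 77843 TPM for Onway, closer together than the group means of the libraries. In the same remainder from the authors' deposited table, Rpl3l was at 0.45 TPM for Control and 0.49 TPM for Onway. The Control value lay below every Onway library (0.61 to 1.70 TPM), so the separation of Rpl3l did not hold for the remainder. The large to small subunit ratio of the remainder was 1.12 for Control and 1.09 for Onway. The remainder ratio of Onway, 1.09, lay above that of the library Control 5, 1.08. Rpl17 was at 778 TPM for Control and 1020 TPM for Onway in the remainder, the reverse of its direction in the libraries. Rps18, at 65.45 and 60.46 TPM, and Rps27l, at 192 and 167 TPM, kept the direction of the libraries.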

How the data were processed

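The authors deposited 1 table of TPM for 158850 transcripts in 6 bone marrow libraries. Per the labels' protocols, RNA was column-purified and made into libraries with a SMARTer mRNA kit. The builds GRCm38 and mm10 are named in the submitters' processing notes. The aligner and quantifier are not given in the sources here. TPM keeps no read depth, so depth is unknown and no counting interval is given. The deposited group means were used as the authors' values only: 4 times each mean was never below the sum of the 3 libraries (tolerance 0.011 TPM). Library Onway 1, 2 and 3 columns were matched by number. The table's transcript length column was not used in a test.

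Transcript TPM were summed per gene. Genes averaging 1 TPM or more across the 6 libraries were tested as log2(TPM + 1), which understates changes of low genes, with limma 3.58.1 (R 4.3.3; trend, robust, two-sided), no covariate and Benjamini-Hochberg adjustment over all tested genes. In simulated data, 29 of 100 genes changed 2-fold and 84 of 100 changed 4-fold were recovered among 14192. The changed genes were drawn at random from all tested genes above about 10 TPM. The recovery therefore does not describe the members in particular, nor low genes such as Rpl3l. Copies were sought with blastn 2.17.0 among GENCODE M21 transcripts. The members and lists were chosen with earlier results of these data known. Named were the members past the threshold (0), the highest and lowest 5 by level in each subunit, paralogues, stalk, 5S and Diamond-Blackfan genes, Rpsa, Fau, the 5 largest estimates in each direction, the 5 with the largest spread, and of other lists those past the threshold or else the 2 smallest p. Further copies and members were named after their values were seen, and some genes that the rule names are not reported here. Alternatives covered pseudocount, filters, scaling, moderation, gene summary and left-out libraries.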

Additional observations from a re-analysis of the deposited data

How the results depend on the processing

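No paired analysis was possible because the groups share no replicate number. Under 17 alternatives 0 members were higher in Onway, and 0 were lower except without Control 5, where 1 (Rpl3l) passed. With single libraries left out, the log2 fold change of Rpl3l ranged from -2.36 to -1.36. The median log2 fold change of members ranged from -0.20 to -0.08, that of large subunit genes from -0.21 to -0.10, and the Onway to Control ratio of sums from 0.866 to 0.953. The median of small subunit genes was -0.066 with quantile normalization, and from -0.203 to -0.068 with single libraries left out. The large to small ratio difference was -0.015 with named pseudogenes added to their parents, against -0.033. Tested members lower without overlap numbered 6 with haemoglobin genes removed, 7 with median-of-ratios scaling and 7 with quantile normalization. These scalings were planned, but counting members without overlap under them was chosen after seeing the data, as was the addition of near-identical copies. With named pseudogenes added, the estimate of Rpl17 was 0.0010, with the sign turned. The 457 genes called over the whole table became 123 with a minimum mean of 10 TPM, where fewer genes are tested, 304 without both Control 4 and Onway 3, and from 262 to 488 with single libraries left out, lowest without Onway 2. Except where stated, the cause was not tested. Rpl3l has no value under the minimum of 10 TPM.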
